A study of Mus musculus with 6 samples.

Results

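The genes described here encode the subunits of the oxidative phosphorylation machinery, measured by RNA sequencing in the myometrium, the muscular wall of the uterus. They were chosen by symbol alone: Nduf, Sdh, Uqcr, Cox4 to Cox8 and Atp5 genes of the nucleus, and the mitochondrially encoded mt-Nd, mt-Cytb, mt-Co and mt-Atp genes. Of 55055 genes in the authors' tables, 92 matched, 80 of them nuclear and 12 mitochondrially encoded. The myometrium came from pregnant mice late in gestation, given as E19.5 in the sample labels and as day 19 in the series design. The wild-type group (WT) is 3 animals labelled TCF23 WT, and the knockout group (KO) is 3 animals labelled TCF23 KO, from mice in which Tcf23, a basic helix-loop-helix factor gene, was disrupted with CRISPR/Cas9. No treatment is named for either group, and strain, maternal age, litter, whether the fetuses carried the deletion and the number of founder lines are not stated in the labels. Each library is from a different animal, and the study asks what TCF23 does for contraction of this muscle.

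Oxidative phosphorylation turns the energy of NADH and succinate into ATP at the inner mitochondrial membrane. Complexes I and II pass electrons to ubiquinone, complex III passes them to cytochrome c, complex IV passes them to oxygen, and complex V, the ATP synthase, uses the proton gradient that complexes I, III and IV build. Complex II is encoded wholly in the nucleus, while the other complexes join nuclear subunits to a few made inside the mitochondrion from its own DNA, so that both genomes supply their parts. Uterine muscle draws on this pathway, as well as on glycolysis and creatine phosphate, for its contractions.

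Total counts were 39939686 to 65036402 per library. The labels were checked on Tcf23 itself, which had 4203, 5970 and 3360 counts in WT replicates 1 to 3 and 0, 2 and 1 counts in KO replicates 1 to 3. Summed CPM (counts scaled to a common library size by TMM) of 10 smooth muscle markers such as Acta2 and Myh11 were 26676 to 31430 in WT, and 33605, 38199 and 14967 in KO replicates 1 to 3. KO replicate 3 thus held less smooth muscle marker RNA than any other library. Of 14 placental markers, 10 were tested and Prl3d1 was at 0 in every library. Their sum was 37.6 to 41.5 CPM in WT, and 308.1, 10.9 and 1.10 CPM in KO replicates 1 to 3. The sum of 8 red blood cell markers was 51.1 to 106.5 CPM in WT, and 282.5, 75.5 and 102.8 CPM in KO replicates 1 to 3, with Hbb-y, an embryonic globin, at 0 in all but KO replicate 2. Placental and red blood cell RNA was therefore highest in KO replicate 1.

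No oxidative phosphorylation gene differed between the genotypes at an adjusted p under 0.05 (edgeR quasi-likelihood test, Benjamini-Hochberg adjustment over all 19599 tested genes). Of the 92 genes, 87 passed the filter on low counts, 75 nuclear and 12 mitochondrially encoded. The 0 calls stand beside 4 calls over all tested genes, 0.0204% of them. At an unadjusted p under 0.05 the count was again 0, against 8.56% of all tested genes. DESeq2 called 0 of the 88 genes to which it gave an adjusted p, against 1.84% of all genes, and 4 of its p-values were under 0.05 before adjustment, against 5.71%. With limma-voom 0 were called, against 0.0204%, and 1 p-value was under 0.05 before adjustment, against 8.51%. With the replicate number as a block in edgeR 0 were called, against 0.0357%, and the p-values of Cox6b2 and mt-Nd6 were under 0.05 before adjustment, 2 of 87 genes against 10.5% of all. The smallest adjusted p among the 87 was 0.59 by edgeR and 0.45 by DESeq2, both for Cox6b2.

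The estimates were close to 0 and for most genes precise enough to bound the change. The log2 change (KO minus WT) ran from −0.29 for Cox6c to 0.77 for mt-Nd6. Its 95% interval lay within a 2-fold change in either direction for 79 of the 87 genes, against 65.2% of all tested genes. For the other 8 a 2-fold difference was within the interval. The median log2 change was 0.09 over the 75 nuclear genes, 0.05 over the 12 mitochondrially encoded genes and 0.01 over all tested genes. Positive estimates were 54 of 75 and 9 of 12, where 52.1% of all tested genes were positive. The nuclear count rested on KO replicate 1: without that library 17 of 75 estimates were positive and their median was −0.13. The mitochondrial count rested on WT replicate 3 and KO replicate 3, without which 5 and 6 of 12 were positive. RNA from bulk tissue cannot tell fewer cells of a type from less RNA per cell.

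**Figure D1:**
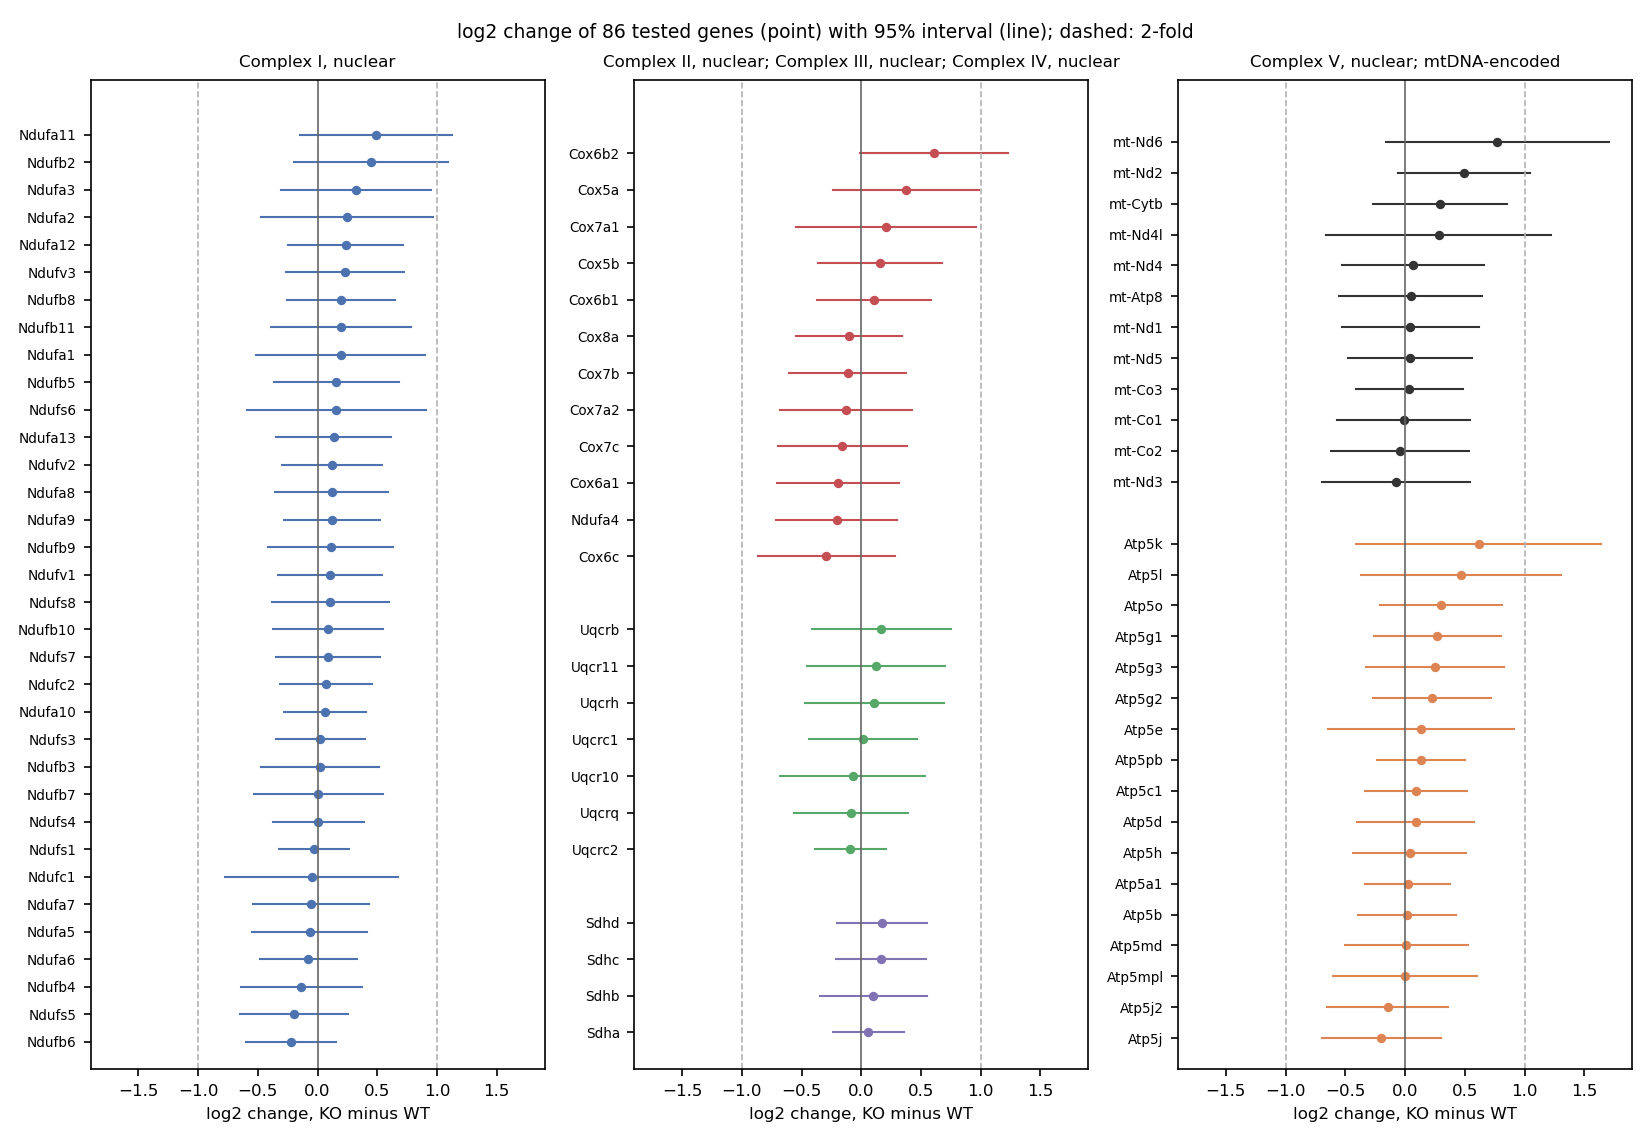
Log2 change (KO minus WT) of 86 of the 87 tested genes, by complex and genome; points are edgeR estimates, lines 95% intervals, and dashed lines mark a 2-fold change. Every interval drawn crosses 0, and 78 of 86 lie between the dashed lines.

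The nuclear genes varied among the KO animals nearly as a block. Relative to the WT mean, the median of the 75 genes was 0.04, 0.05 and −0.11 log2 in WT replicates 1 to 3, and 0.44, −0.28 and −0.03 in KO replicates 1 to 3. KO replicate 1 was thus high, KO replicate 2 low and KO replicate 3 close to the WT libraries. The order of replicate 1 over 3 over 2 within KO, an order picked after the values were seen, held for 69 of the 75 genes (92.0%), against 19.3% of all tested genes. Among genes with transcripts under 1000 bp it held for 96.2% of the 52 nuclear subunit genes, against 36.6% of all 3069 tested. KO replicate 1 was the highest of all 6 libraries for 70 of 75 genes, which included all 35 of complex I and all 17 of complex V. That share was 93.3%, against 23.3% of all tested genes and 37.5% of those under 1000 bp. KO replicate 2 was the lowest for 57 of 75 (76.0%), against 20.9% of all tested genes and 33.0% of those under 1000 bp. The standard deviation was larger in KO than in WT for 75 of 75 nuclear genes, against 76.8% of all tested genes. The median coefficient of variation was 8.52% in WT and 27.3% in KO.

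Some other lists of nuclear genes of the mitochondrion shared this order. It held for 66 of 78 mitochondrial ribosomal protein genes (84.6%) and for 57.4% of 47 assembly factor genes, against 19.3% of all tested genes. For the 17 genes of the citric acid cycle and pyruvate entry the share was 17.6%, near that of all tested genes. The level in KO replicate 1 over that in KO replicate 2 had a median of 1.69 over the nuclear subunit genes. It ran from 0.823 for Cox6b2, the testis form of a complex IV subunit and the one tested nuclear member below 1, through 1.06 for Ndufs1 and 1.09 for Sdha, to 2.61 for Atp5e and 2.89 for Atp5k. The medians by complex were 1.67, 1.37, 1.69, 1.72 and 1.74 for complexes I to V. Complex II had the lowest of these medians. Its 4 genes have transcripts of 1142 to 3171 bp, where 52 of the 75 nuclear genes have transcripts under 1000 bp. The part of length in this was not tested. The ratio of Ndufs1 is uncertain, because its exons overlap other genes that held 683% of its counts.

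**Figure D2:**
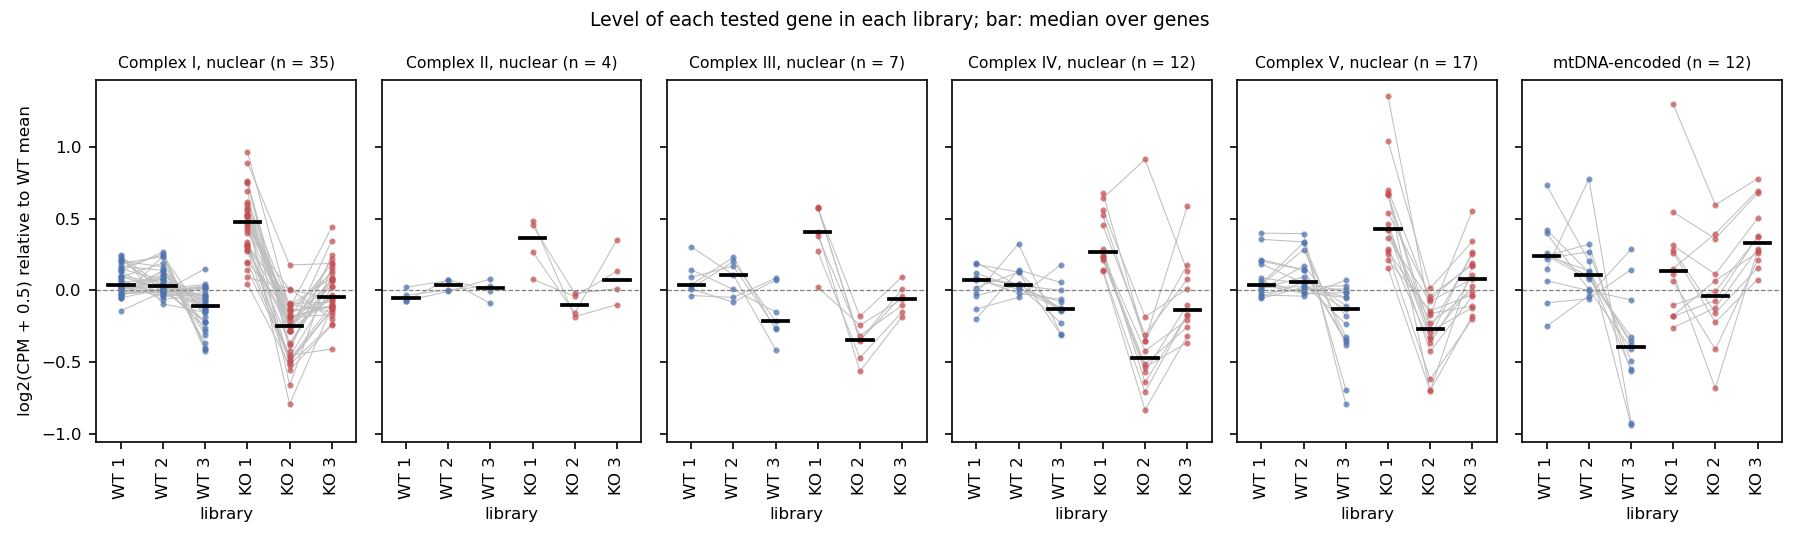
Level of each tested gene in each library, as log2(CPM + 0.5) relative to the WT mean; points are genes joined by lines, and bars are medians. Nuclear genes of all 5 complexes are high in KO replicate 1 and low in KO replicate 2, whereas 9 of the 12 mitochondrially encoded genes are lowest in WT replicate 3.

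The spread among KO libraries ran with transcript length. The 52 nuclear subunit genes with transcripts under 1000 bp had medians of 0.49 in KO replicate 1 and −0.35 in KO replicate 2, and the 5 of at least 2000 bp had 0.21 and −0.04. All 3069 tested genes under 1000 bp had 0.13 and −0.09, and all 11839 of at least 2000 bp had −0.08 and 0.03. Over the 75 genes, Spearman's rho between length and deviation from the group mean was −0.53 in KO replicate 1 and 0.57 in KO replicate 2, and over 19582 genes it was −0.38 and 0.32. In WT replicates 2 and 3 it was as far from 0 over the 75 genes, at −0.55 and 0.57, but 0.04 and 0.03 over all genes. In WT replicate 1 and KO replicate 3 it was −0.29 and −0.19 over the 75 genes. These are descriptions over genes of the same libraries, not tests. The red blood cell marker sums given above had the same order among KO libraries, replicate 1 over 3 over 2. The placental sums were highest in KO replicate 1 too but lowest in replicate 3, and smooth muscle marker RNA was highest in KO replicate 2. The part of transcript length and of other cell types in the shared movement was not tested.

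**Figure D3:**
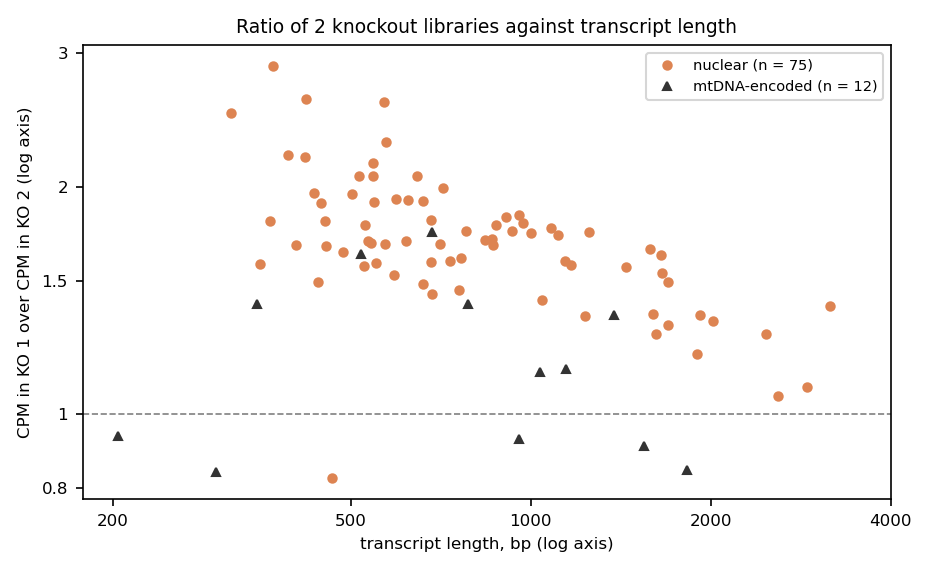
CPM in KO replicate 1 over CPM in KO replicate 2 (log axis) against transcript length in bp (log axis); each point is 1 of 75 nuclear or 12 mitochondrially encoded genes. The ratio reaches 2.89 among the shortest nuclear transcripts and is between 1.06 and 1.39 for those of at least 2000 bp.

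Because the nuclear genes moved together, their promoters were searched for motifs of factors known to act on respiratory genes. RefSeq promoters (GRCm38.p6, 250 bases before to 50 after the start) were matched for 66 of the 80 nuclear genes. The match was by Ensembl gene identifier or, failing that, by symbol or synonym. Each motif was searched on both strands, and none holds the letters of another. The NRF1 motif, the 10 letters in capitals in the Atp5g2 sequence printed next, was in 5 of 66 (7.58%), against 1.07% of 27025 genes in the table. The ETS motif CCGGAAG, the kind bound by GABPA, was in 17 (25.8%), against 9.93%. The YY1 motif AAGATGGCG was in 7 (10.6%), against 1.64%, and the estrogen-related receptor motif TCAAGGTCA in 2 (3.03%), against 0.466%. The general promoter motifs CCAAT and GGGCGG were in 45.5% and 40.9%, against 41.1% and 38.2% of all genes. A match is only a match of letters. The median ratio of KO replicate 1 to KO replicate 2 was 1.68 for the 5 genes with the NRF1 motif and 1.70 for the 59 tested genes without it. For the ETS motif it was 1.70 for both the 17 with and the 47 without, and for the estrogen-related receptor motif 1.67 and 1.70. For the YY1 motif it was 1.81 for the 7 with and 1.70 for the 57 without. For CCAAT it was 1.70 in both sets, and for GGGCGG 1.62 for the 26 with and 1.74 for the 38 without. These differences were not tested.

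The 250 bases before the start are shown for 4 genes, to let the motifs be seen in place: Cox6a1 of complex IV, the nuclear gene with the highest level per length; Atp5g2, the highest of the 3 genes for the rotating ring of the ATP synthase; and Ndufb7 of complex I and Uqcrh of complex III, an accessory subunit each. Capitals mark NRF1 matches (10 letters, the same on both strands) and ETS matches (CCGGAAG, or CTTCCGG on the other strand). They lie at chr5:115348959-115349208 (minus strand), chr15:102671048-102671297 (minus), chr8:83566508-83566757 (plus) and chr4:116075071-116075320 (minus), in the same order, and each reads 5′ to 3′ on the strand of its gene.
Cox6a1: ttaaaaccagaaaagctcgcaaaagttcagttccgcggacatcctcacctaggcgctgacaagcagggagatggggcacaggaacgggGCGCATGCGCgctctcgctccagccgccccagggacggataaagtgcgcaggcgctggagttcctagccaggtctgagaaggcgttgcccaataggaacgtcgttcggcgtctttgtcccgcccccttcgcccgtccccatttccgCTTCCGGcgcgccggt
Atp5g2: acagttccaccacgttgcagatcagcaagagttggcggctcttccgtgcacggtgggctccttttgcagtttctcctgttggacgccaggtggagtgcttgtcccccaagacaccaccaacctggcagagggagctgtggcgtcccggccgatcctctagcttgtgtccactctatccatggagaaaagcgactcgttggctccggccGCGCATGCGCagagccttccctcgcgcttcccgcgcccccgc
Ndufb7: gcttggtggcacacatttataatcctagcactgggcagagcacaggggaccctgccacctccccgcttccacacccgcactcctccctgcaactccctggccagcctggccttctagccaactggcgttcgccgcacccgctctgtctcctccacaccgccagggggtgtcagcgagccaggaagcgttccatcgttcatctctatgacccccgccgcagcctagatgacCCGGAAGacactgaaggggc
Uqcrh: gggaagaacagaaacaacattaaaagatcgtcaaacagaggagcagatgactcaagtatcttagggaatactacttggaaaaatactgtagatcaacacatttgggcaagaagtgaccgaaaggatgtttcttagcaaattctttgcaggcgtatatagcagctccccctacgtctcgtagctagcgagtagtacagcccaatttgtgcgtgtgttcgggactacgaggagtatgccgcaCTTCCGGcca
Cox6a1 held both motifs, the NRF1 match beginning 162 bases and the ETS match 16 bases before the start. In Ndufb7 and Uqcrh the ETS match began 20 and 10 bases before it, and in Atp5g2 the NRF1 match began 42 bases before it. The start used for Atp5g2 is an internal one. Its window lies within the annotated gene, which begins at chr15:102672352 on the minus strand.

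Complex I takes electrons from NADH. Its 35 nuclear genes had a median log2 change of 0.10, with 27 positive, and −0.12 without KO replicate 1. The 7 core subunits, which carry the flavin, the iron-sulfur clusters and the quinone site, stayed between −0.03 and 0.12. Among them, Ndufv1, the NADH-binding subunit, had 59.4, 62.0 and 63.4 CPM in WT and 85.8, 55.9 and 57.0 CPM in KO, with replicate 1 above and replicates 2 and 3 below the WT range. The 28 accessory subunits ranged more widely, from −0.22 to 0.49. The smallest p-values were those of Ndufa11, Ndufb2 and Ndufb6, accessory subunits of the membrane arm. Ndufa11 had 33.2, 28.5 and 24.4 CPM in WT and 56.0, 26.1 and 38.7 CPM in KO (log2 change 0.49 ± 0.27 SE, edgeR adjusted p = 0.72). Ndufb2 had 10.8, 11.1 and 6.87 CPM in WT and 17.8, 10.7 and 10.8 CPM in KO (0.45 ± 0.28). Ndufb6 was 28.4, 29.1 and 29.3 CPM in WT and 29.8, 20.05 and 24.5 CPM in KO (−0.22 ± 0.16). In all 3 the groups overlapped, and the exons of Ndufa11 and Ndufb2 overlap other genes that held 66.8% and 523% of their counts, which makes their own values uncertain. Ndufb8, the complex I gene with the highest level per length among the nuclear ones, had 161.5, 171.8 and 145.8 CPM in WT and 230.7, 144.9 and 173.2 CPM in KO.

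Complex II, succinate dehydrogenase, ties the citric acid cycle to the chain. All 4 genes had small positive estimates, 0.06 to 0.17, with a median of 0.13, or 0.03 without KO replicate 1. Sdha, the flavoprotein that oxidizes succinate, had 167.7, 175.5 and 186.4 CPM in WT and 186.1, 171.3 and 193.4 CPM in KO. Sdhb, the iron-sulfur subunit, had 60.9, 62.5 and 63.7 CPM in WT and 87.5, 54.9 and 58.2 CPM in KO. The membrane anchor Sdhc had 87.4, 90.3 and 80.8 CPM in WT and 118.0, 84.8 and 86.8 CPM in KO. The other anchor, Sdhd, was 79.1, 87.5 and 82.9 CPM in WT and 100.3, 74.4 and 106.3 CPM in KO. In each of the 4 genes the groups overlapped.

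Complex III passes electrons from ubiquinol to cytochrome c. Its 7 nuclear genes had a median of 0.02 and a range of −0.09 to 0.17, and the median was −0.19 without KO replicate 1 and −0.01 with the replicate number as a block. Uqcrc2, a core protein, had 80.5, 75.5 and 84.0 CPM in WT and 81.1, 67.5 and 76.6 CPM in KO. The small subunit Uqcrb was at 91.3, 79.7 and 55.4 CPM in WT and at 110.2, 65.1 and 78.9 CPM in KO. Uqcr11, another small subunit, had 99.6, 105.2 and 77.9 CPM in WT and 139.5, 73.3 and 94.0 CPM in KO. Uqcrq, the nuclear complex III gene with the highest level per length, was at 153.5, 139.5 and 125.1 CPM in WT and at 167.8, 100.2 and 125.0 CPM in KO. The groups overlapped for all 7.

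Complex IV, cytochrome c oxidase, was the one complex whose nuclear genes had a negative median. It was −0.11 over 12 tested genes, 7 of them negative, −0.31 without KO replicate 1 and 0.07 without KO replicate 2. With Ndufa4, here counted in complex IV where the protein resides, moved to complex I it was −0.10. Whether complex IV differs from the other complexes was not tested. Among the 10 subunits found in most tissues, Cox6c had the lowest estimate, with 190.2, 201.2 and 235.5 CPM in WT and 228.4, 116.7 and 166.9 CPM in KO (−0.29 ± 0.25). Cox6a1 had 338.2, 363.8 and 301.6 CPM in WT and 386.3, 230.0 and 259.1 CPM in KO (−0.20 ± 0.22). Both were low in KO replicates 2 and 3 and within or above the WT range in replicate 1. Cox5a, a subunit on the matrix side, leaned the other way, with 29.2, 27.2 and 24.4 CPM in WT and 43.3, 21.0 and 40.5 CPM in KO (0.37 ± 0.26). Cox6b2, at mm10 chr7:4751792-4753094 on the minus strand, is known as the testis counterpart of Cox6b1. It had 6.82, 8.77 and 5.50 CPM in WT and 11.1, 13.4 and 7.63 CPM in KO (0.61 ± 0.26, edgeR adjusted p = 0.59). KO replicates 1 and 2 lay above every WT value and KO replicate 3 lay among them. Within each of the 3 pairs of libraries with the same replicate number KO was higher, and with that number as a block the edgeR adjusted p was 0.29.

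Complex V makes ATP. Its 17 nuclear genes had a median of 0.09, with 14 positive, and −0.10 without KO replicate 1. The 5 genes of the catalytic head and its stalk had estimates of 0.02 to 0.14. Atp5b, the catalytic beta subunit, had 731.8, 727.3 and 786.3 CPM in WT and 906.0, 669.6 and 693.3 CPM in KO (0.02 ± 0.18). The 3 genes of the c-ring, which encode the same mature protein behind different import signals, were all positive, at 0.23 to 0.27. Their shares of c-ring RNA per length were 19.96% ± 2.71 for Atp5g1, 53.6% ± 3.8 for Atp5g2 and 26.4% ± 1.7 for Atp5g3 in WT (SD, n = 3). In KO they were 19.9% ± 1.4, 53.9% ± 3.7 and 26.2% ± 2.3. Near-identical copies held 18.7% as many counts as Atp5g1 and 5.17% as many as Atp5g2, so these shares are uncertain. In the peripheral stalk, which holds the head still, Atp5o had 84.0, 76.5 and 62.7 CPM in WT and 120.2, 70.7 and 84.4 CPM in KO (0.30 ± 0.22). Among the small membrane subunits that help the enzyme form dimers, Atp5k, at mm10 chr5:108433244-108434448 on the minus strand, had 73.8, 73.6 and 32.0 CPM in WT and 143.1, 49.6 and 82.3 CPM in KO (0.62 ± 0.44, adjusted p = 0.79). It had the highest estimate of any nuclear gene and also the widest interval, −0.41 to 1.64. Its partner Atp5l was at 21.2, 20.9 and 10.01 CPM in WT and at 34.4, 16.7 and 21.0 CPM in KO (0.47 ± 0.36), but 9 near-identical copies, mostly processed pseudogenes, together held 109% of its counts, so its level is uncertain. The 2 genes shared the low WT replicate 3 and the high KO replicate 1.

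The mitochondrially encoded genes did not follow the nuclear ones. Their median relative to the WT mean was 0.24, 0.11 and −0.39 log2 in WT replicates 1 to 3, and 0.13, −0.04 and 0.33 in KO replicates 1 to 3. WT replicate 3 was the lowest of all 6 libraries for 9 of the 12 genes and KO replicate 3 the highest of the KO libraries for 9 of 12. The order of KO replicate 1 over 3 over 2 held for 3 of 12. The standard deviation was larger in KO than in WT for 3 of 12, with median coefficients of variation of 24.1% in WT and 18.8% in KO. KO replicate 3, where these RNAs were high, was the library with the lowest smooth muscle markers. Its summed epithelial markers, 5508 CPM, were above the 1992 to 4594 CPM of the other 5 libraries, and the part of cell types in this was not tested.

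**Figure D4:**
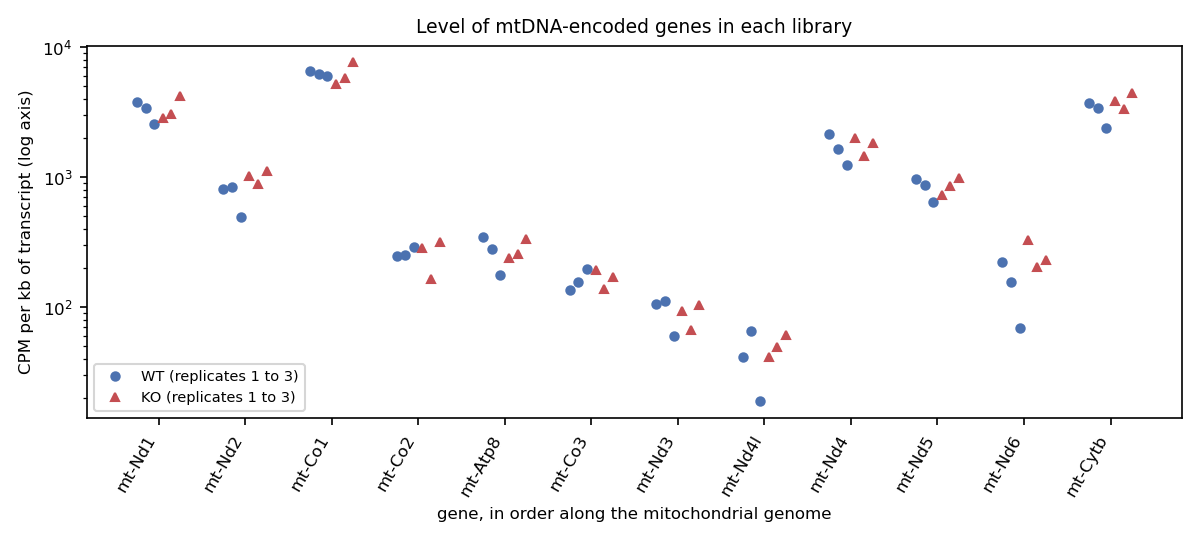
CPM per kb of transcript (log axis) of the 12 mitochondrially encoded genes in each library, in their order along the mitochondrial genome; circles are WT and triangles KO replicates 1 to 3. Of the 12, mt-Nd2 is the gene whose KO points all lie above its WT points.

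Of the 7 complex I subunits from mitochondrial DNA, which form its proton-pumping membrane arm, 6 had positive estimates and the median was 0.07. One of them, mt-Nd2 (chrM:3914-4951, plus strand), was the single gene of the 87 whose groups did not overlap, where 14.2% of all tested genes did not. It had 841.5, 869.7 and 513.3 CPM in WT and 1053, 925.9 and 1153 CPM in KO (0.49 ± 0.24, adjusted p = 0.64). The gap was narrow, between WT replicate 2 and KO replicate 2, and the estimate ran from 0.28 to 0.62 when each library was left out in turn. The highest estimate of all 87 was that of mt-Nd6 (chrM:13552-14070), the one protein gene read from the other strand, with 115.8, 80.4 and 36.1 CPM in WT and 171.6, 105.4 and 119.6 CPM in KO (0.77 ± 0.40, adjusted p = 0.68). Its groups overlapped, and its 95% interval ran from −0.16 to 1.70. KO was higher within each of the 3 pairs of libraries with the same number (edgeR adjusted p = 0.35 with the number as a block). It overlaps mt-Nd5 only at chrM:13552-13565, a small part of mt-Nd6. The whole of mt-Nd5 held 1424% as many counts as mt-Nd6, and no label says whether counting used the strand.

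The other mitochondrial subunits of complex I had lower estimates. The larger subunits mt-Nd1, mt-Nd4 and mt-Nd5 had estimates near 0. For mt-Nd1 the values were 3643, 3261 and 2468 CPM in WT and 2722, 2935 and 4001 CPM in KO (0.04 ± 0.25). For mt-Nd4 the values were 2967, 2265 and 1702 CPM in WT and 2737, 2021 and 2508 CPM in KO (0.07 ± 0.25). For mt-Nd5 they were 1780, 1591 and 1164 CPM in WT and 1319, 1561 and 1786 CPM in KO (0.04 ± 0.22). WT replicate 3 was the lowest library for all 3. The short mt-Nd3 was at 36.8, 38.9 and 20.9 CPM in WT and 32.5, 23.2 and 36.0 CPM in KO, and mt-Nd4l at 12.3, 19.3 and 5.60 CPM in WT and 12.4, 14.7 and 18.2 CPM in KO.

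Outside complex I, mt-Cytb, the complex III subunit that carries the quinone sites, had 4216, 3921 and 2746 CPM in WT and 4430, 3855 and 5048 CPM in KO (0.29 ± 0.24, adjusted p = 0.84). The catalytic subunit of complex IV, mt-Co1, was the most abundant of all members at 10128, 9652 and 9230 CPM in WT and 8072, 8891 and 11781 CPM in KO (−0.01 ± 0.24). Its copper-binding partner mt-Co2 had 169.6, 172.8 and 198.9 CPM in WT and 195.1, 112.1 and 218.1 CPM in KO. The third core subunit, mt-Co3, had 106.2, 123.2 and 154.3 CPM in WT and 151.7, 108.4 and 133.3 CPM in KO. WT replicate 3 was the highest WT library for these last 2, unlike the other mitochondrial genes. In complex V, mt-Atp8 had 70.6, 57.3 and 35.8 CPM in WT and 48.9, 52.3 and 67.99 CPM in KO (0.05 ± 0.26).

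For 4 mitochondrial genes, near-identical copies found in the nuclear genome limit the values. Only annotated transcripts were searched, so copies without an annotated gene would have been missed for any gene, mt-Atp8 included. Annotated copies, chiefly Gm28661 for mt-Co2, Gm28437 for mt-Co3, Gm28438 for mt-Nd3 and Gm10222 for mt-Nd4l, all on chromosome 1, held 64.4%, 95.5%, 116% and 69.3% as many counts as the genes themselves. For mt-Co1, mt-Nd4 and mt-Nd5 copies held 0.0772%, 1.82% and 0.0095%. No label says how reads that fit both places were counted. With the copies added, the log2 ratio of KO to WT means went from 0.28 to 0.67 for mt-Nd4l and from −0.07 to −0.22 for mt-Nd3, and it changed sign, from −0.04 to 0.03 for mt-Co2 and from 0.04 to −0.01 for mt-Co3. Of all 92 genes, 24 had such a copy and 9 had copies with over 10% of their counts. Cox6c2 among them is itself a processed pseudogene, with 1 to 19 counts per library, whose source gene Cox6c had 6474 to 14694. The exons of 37 of the 92 genes overlap another gene, which for 17 held over 10% of their counts.

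Read as shares of the library, the 2 genomes' parts were of similar size in both genotypes. Mitochondrially encoded subunits took 2.37%, 2.17% and 1.85% of all counts in WT and 2.07%, 2.05% and 2.76% in KO, and the nuclear subunits took 0.830%, 0.835% and 0.779% in WT and 1.06%, 0.658% and 0.820% in KO. Means were 2.13% ± 0.26 and 2.29% ± 0.40 for the mitochondrial share, and 0.815% ± 0.031 and 0.845% ± 0.200 for the nuclear share (SD, n = 3). The groups overlapped in both. The ratio of mitochondrial to nuclear counts was 2.86, 2.60 and 2.38 in WT and 1.96, 3.12 and 3.36 in KO, so KO animals stood on both sides of WT. Its mean was 2.61 ± 0.24 in WT and 2.82 ± 0.75 in KO. The difference of 0.20 in these means was smaller than the spread within KO, and without KO replicate 3 it was −0.07. Of the mitochondrial counts, mt-Co1 alone held 38.5% to 50.5% per library. Without mt-Co1 the ratio was 1.66, 1.46 and 1.18 in WT and 1.21, 1.77 and 1.89 in KO. KO replicate 1 then lay among the WT values, and KO replicates 2 and 3 lay above them.

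**Figure D5:**
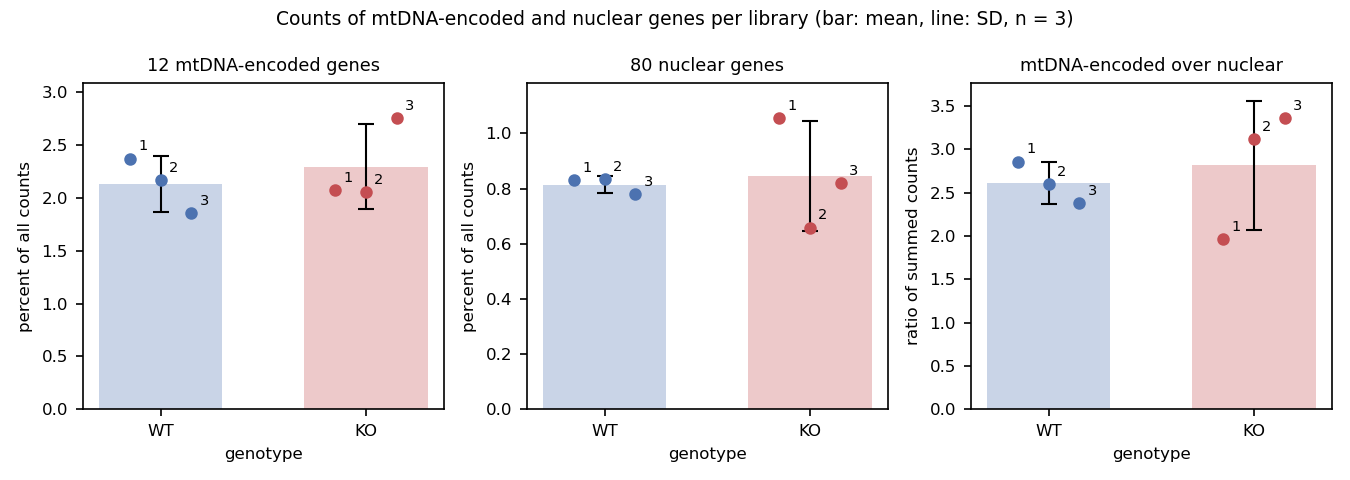
Percent of all counts from the 12 mitochondrially encoded genes (left) and the 80 nuclear genes (middle), and the ratio of the 2 (right); points are libraries numbered by replicate, bars means and lines SD (n = 3). KO replicate 1 has the highest nuclear share, 1.06%, and the lowest ratio, 1.96, and KO replicate 3 the highest mitochondrial share, 2.76%.

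Complex by complex, the ratio was 3.47 ± 0.57 in WT and 3.66 ± 0.91 in KO for complex I, 4.59 ± 0.63 and 5.82 ± 1.37 for complex III, 5.25 ± 0.16 and 5.86 ± 1.92 for complex IV, and 0.0189 ± 0.0056 and 0.0195 ± 0.0057 for complex V. For complex V the mitochondrial part is mt-Atp8, the one gene of that part analysed here, so that this ratio and the mitochondrial shares do not cover every mitochondrially encoded subunit. In complex IV the 3 WT libraries lay within 5.07 to 5.37. KO replicates 1 to 3 had 3.65, 6.77 and 7.17, all outside that range and on both sides of it. The mitochondrial part of this ratio was mainly mt-Co1, with a mean of 9670 of 9978 CPM in WT and 9581 of 9888 CPM in KO. In complex III KO replicate 1, at 4.26, lay among the WT values of 3.91 to 5.14, and KO replicates 2 and 3, at 6.39 and 6.82, lay above them.

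Levels per length (CPM per kb of the principal transcript) ordered the genes in the same way in both genotypes. Spearman's rho between the WT and KO means was 0.99 over the 75 nuclear and 0.98 over the 12 mitochondrial genes, as a description. In WT the mitochondrial genes ran from 41.8 per kb for mt-Nd4l to 6259 per kb for mt-Co1, with mt-Nd1 at 3264 and mt-Cytb at 3171 per kb next. The last 2 did not differ beyond their spread. The 4 genes whose near-identical nuclear copies held over 10% of their counts were, with mt-Nd6 and mt-Atp8, the 6 lowest. Nuclear genes had a median of 97.7 per kb. By complex the median was 63.1 per kb in complex I, 57.7 in complex II, 211.7 in complex III, 398.7 over the 10 common subunits of complex IV and 161.2 in complex V. The highest nuclear levels were 585.8 per kb for Cox6a1 and 504.1 for Cox8a. In complexes I and III the lowest were Ndufs1, at 18.5, and the core protein Uqcrc2, at 42.2. The exons of Ndufs1 overlap other genes that held 683% of its counts, so its level is uncertain.

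Several complex IV subunits have another form made in striated muscle or testis, and in this smooth muscle the common form prevailed in both genotypes. The heart and skeletal muscle form Cox6a2 made up 0.0344% ± 0.0031 of Cox6a RNA per length in WT and 0.0546% ± 0.0155 in KO, and Cox8b made up 0.0392% ± 0.0114 and 0.0924% ± 0.0644 of Cox8 RNA (SD, n = 3). These shares rest on 6 to 13 counts per library for Cox6a2 and 2 to 12 for Cox8b. Neither gene passed the filter on low counts, so no difference between the genotypes is read from them. Cox7a1, the third such form, made up 3.46% ± 0.64 of the pair with Cox7a2 in WT and 4.22% ± 0.36 in KO. Its level was 1.65, 1.60 and 1.37 CPM in WT and 2.42, 1.10 and 1.805 CPM in KO. Cox8c, a testis form, had 0 counts in every library, which allows up to 0.0461 to 0.0751 CPM (3 counts of the library total), and Cox7b2 had a single count, in KO replicate 2. The share of Cox6b2 was 3.44%, 4.70% and 3.08% in WT and 4.28%, 8.44% and 3.85% in KO. KO replicate 2 had the highest share, and in it Cox6b1 was lowest, at 193.6 CPM, while Cox6b2 was highest. A pair of further forms lies outside the symbol rule. Cox4i2, known from lung and as oxygen-responsive, made up 0.51% ± 0.11 of the Cox4i pair in WT and 0.68% ± 0.25 in KO. Ndufa4l2, known as a hypoxia target, had 8.38, 6.59 and 7.21 CPM in WT and 13.5, 12.6 and 6.73 CPM in KO (0.57 ± 0.27, adjusted p = 0.64). It was above the WT range in KO replicates 1 and 2 and within it in replicate 3, as Cox6b2 was.

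Subunits that the symbol rule missed gave similar values. Of 9 such genes, among them Cox4i1, Uqcrfs1, Cyc1 and Ndufab1, all were tested, 0 passed the threshold, 6 had positive estimates and the median was 0.16. Cox4i1 had 333.9, 365.8 and 300.2 CPM in WT and 453.7, 249.8 and 312.6 CPM in KO, with the order of KO libraries seen above. Cycs, the electron carrier cytochrome c, had the lowest estimate of the 9, with 64.4, 67.7 and 101.5 CPM in WT and 71.96, 45.3 and 57.4 CPM in KO (−0.42 ± 0.24, adjusted p = 0.73).

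The genes that build and feed the machinery also gave 0 calls after adjustment in every list. The 47 tested assembly factors had 22 positive estimates and a median of −0.003, where 52.1% of all tested genes were positive. They had 1 unadjusted p under 0.05, where 8.56% of all tested genes had one. That was Atpaf1, a chaperone of the ATP synthase head, with 7.82, 8.11 and 7.87 CPM in WT and 5.39, 6.11 and 6.66 CPM in KO (−0.39 ± 0.16, adjusted p = 0.57). Its groups did not overlap. Cox10, needed to make the haem of complex IV, had 13.2, 13.5 and 13.7 CPM in WT and 17.9, 14.8 and 15.2 CPM in KO (0.25 ± 0.13), again without overlap. Among the 47, the groups did not overlap for 2 genes higher and 2 lower in KO. Over all tested genes 14.2% did not overlap. Of 30 genes that copy and read mitochondrial DNA, 13 were positive. Pnpt1, a polynucleotide phosphorylase of the mitochondrion, had 29.7, 30.5 and 33.4 CPM in WT and 25.7, 23.2 and 24.8 CPM in KO (−0.34 ± 0.12, adjusted p = 0.45). Tfb2m, a factor that starts mitochondrial transcription, had 25.8, 23.4 and 24.9 CPM in WT and 18.2, 20.8 and 16.8 CPM in KO (−0.41 ± 0.13, adjusted p = 0.42). The groups did not overlap for either. Among the 30, they did not overlap for 1 gene higher and 4 lower in KO. The 78 mitochondrial ribosomal protein genes split into 44 positive and 34 negative, with a median of 0.02. The 2 with the smallest p were Mrps33, with 18.1, 17.2 and 16.8 CPM in WT and 14.9, 12.2 and 15.05 CPM in KO, and Mrpl33, with 59.2, 58.7 and 74.1 CPM in WT and 59.2, 41.3 and 47.1 CPM in KO.

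Of 20 tested regulators of mitochondrial biogenesis, 12 were positive, with a median of 0.03. Ppargc1b, a coactivator of respiratory genes, had 1.44, 2.04 and 1.94 CPM in WT and 2.08, 3.17 and 3.22 CPM in KO (0.64 ± 0.27, adjusted p = 0.57). It was the 1 regulator higher in KO without overlap of the groups, beside 1 that was lower. Over all tested genes 14.2% did not overlap. Esrrg, an orphan receptor that acts with Ppargc1b, was at 0.171, 0.308 and 0.321 CPM in WT and 0.233, 0.901 and 0.780 CPM in KO. Both were higher in KO replicates 2 and 3 than in replicate 1, unlike the nuclear subunit genes. Of 17 citric acid cycle and pyruvate genes 9 were positive. Idh2, the mitochondrial NADP-dependent isocitrate dehydrogenase, had 30.6, 37.9 and 31.2 CPM in WT and 46.9, 43.5 and 41.5 CPM in KO (0.40 ± 0.13, adjusted p = 0.42). Sucla2, a subunit of succinyl-CoA ligase, was at 64.7, 65.1 and 61.3 CPM in WT and at 65.4, 54.5 and 47.2 CPM in KO.

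Glycolysis, the other route to ATP, had 20 of 27 genes positive, where 52.1% of all tested genes were. Its median of 0.24 was the highest of the 7 lists around the pathway. Its medians by library were 0.42, 0.18 and −0.11 in KO replicates 1 to 3. Hk1 phosphorylates glucose in the first step of the pathway. It had 92.9, 91.2 and 96.8 CPM in WT and 135.6, 135.6 and 110.4 CPM in KO (0.44 ± 0.13, edgeR adjusted p = 0.39). Eno3, the muscle enolase, had 3.84, 4.24 and 3.996 CPM in WT and 7.59, 7.23 and 4.56 CPM in KO (0.68 ± 0.23, adjusted p = 0.46). The groups did not overlap for either. Among the 27, they did not overlap for 3 genes higher and 1 lower in KO, against 14.2% of all tested genes. Among 10 tested carriers and creatine kinases, 8 were positive. Ckb, the creatine kinase of smooth muscle and brain, had 111.0, 170.0 and 169.5 CPM in WT and 432.9, 408.5 and 165.2 CPM in KO (1.16 ± 0.37, adjusted p = 0.41). The muscle form Ckm was at 0.622, 1.10 and 0.785 CPM in WT and at 3.23, 2.33 and 0.683 CPM in KO. For both creatine kinases KO replicates 1 and 2 lay above every WT library and KO replicate 3 lay within the WT range. The smooth muscle marker sums were likewise above the WT range in KO replicates 1 and 2, and below it in KO replicate 3. All 7 tested striated muscle markers of a list of 14, which includes Ckm, had positive estimates. Of these, 3 had an unadjusted p under 0.05, against 8.56% of all tested genes, and 0 passed after adjustment (edgeR). Their sum was 37.4 to 72.8 CPM in WT and 126.0, 176.2 and 59.8 CPM in KO replicates 1 to 3, above the WT range in replicates 1 and 2 and within it in replicate 3. The part of either cell type in these values was not tested.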

How the data were processed

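Myometrium RNA of 3 WT and 3 KO pregnant mice was poly(A)-selected and made into directional libraries, per the labels' protocols. The authors deposited raw gene counts, 1 file per library, and a table of normalized values. In that deposited table the signal of every gene is its raw count multiplied by a library constant of 0.804 to 1.26. Tools in the submitters' processing notes are HISAT2 2.2.1 and HTSeq 0.9.1, with FastQC 0.73 and DESeq2 2.11.40.7, on build mm10. Neither labels nor notes give the annotation release or the strand setting.

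The deposited counts were fitted with edgeR 4.0.16 (R 4.3.3), using filterByExpr, TMM scaling, a quasi-likelihood test of genotype, and Benjamini-Hochberg adjusted p under 0.05 over all 19599 tested genes. CPM are relative to TMM-scaled library sizes, ± beside a log2 change is its SE, and the biological coefficient of variation was 26.3%. Transcript lengths are of the shortest principal transcript in GENCODE M21. Copies were sought among the annotated transcripts of GENCODE M21 with blastn 2.17.0 (at least 95% identity over at least 100 bases and 50% of the transcript). Counting limits assume independent reads and cover counting error only. On simulated counts for this comparison (19599 genes), edgeR found 25% of the 2-fold and 99% of the 4-fold changes. Every simulated gene had the same biological coefficient of variation, 26.3%, so these are not rates for the members themselves. P-values measure the spread between these 6 animals.

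The replicate numbers of the titles were checked as pairs. Deviations from the group mean, which sum to 0 within a group, were correlated over genes between WT and KO libraries. The correlations were −0.223 to 0.061 for libraries with different numbers. For those with the same number they were 0.147, 0.196 and 0.217. What links libraries with the same number is not stated. A fit with the number as a block was 1 alternative. The others were RLE and upper-quartile scaling, TMM on nuclear genes, other filters, DESeq2 1.42.0, limma 3.58.1 and leaving out each library. The members and gene lists were chosen with earlier results of these data known. The text names all 12 mitochondrially encoded members and Tcf23. In each complex it names the 3 nuclear members with the smallest p and the one with the highest CPM per kb. It also names the tissue isoform pairs and up to 2 genes with the smallest p in each other list. Other members named, such as Ndufs1, Ndufv1, Sdha, Atp5e and Cycs, were chosen after their values were seen, as were the 4 promoters printed. The values of 1 tested member are not reported by name here.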

Additional observations from a re-analysis of the deposited data

How the results depend on the processing

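No oxidative phosphorylation gene passed the threshold in any of the 15 alternatives run, with a smallest adjusted p of 0.16 (without KO replicate 2). Over all genes the count of calls was 4, and it was 12 with upper-quartile scaling, 81 without the filter on low counts and 378 with DESeq2. It was 7 with the replicate number as a block, which left the members' calls at 0. Leaving out each library gave 1 to 7 calls, with 1 without WT replicate 1 or 2 and 7 without KO replicate 3. The cause of these differences was not tested. Directions were less stable than calls. Of the 87 estimates, 40 changed sign without KO replicate 1, 17 without KO replicate 2 and 14 without WT replicate 3, and 0 to 8 did so under each other alternative. The median of the nuclear genes ran from −0.13 to 0.23 over the libraries left out and that of the mitochondrially encoded genes from −0.06 to 0.23. The other scalings, filters and tools kept both medians positive. With 3 animals a group, the median 95% interval reached 0.51 log2 to each side before any adjustment for the number of genes. On simulated counts, with the same spread for every gene, edgeR found 25% of 2-fold changes. At that spread changes well above 0.51 could go uncalled. The rate for the members themselves was not measured.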

Other observations

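The mitochondrial ribosomal RNAs, which are not subunits of the complexes, were measured in the same libraries. The larger one, mt-Rnr2, had 891.5, 931.8 and 734.2 CPM in WT and 1028, 857.7 and 976.2 CPM in KO, a log2 change of 0.16 ± 0.17 (SE). The smaller one, mt-Rnr1, had 444.1, 422.8 and 383.6 CPM in WT and 532.9, 348.7 and 467.2 CPM in KO (0.11 ± 0.19). Both were lowest among WT in replicate 3, as most mitochondrially encoded subunits were, and highest among KO in replicate 1, as most nuclear subunits were. Atpif1, the inhibitor of the ATP synthase, had 71.4, 59.2 and 33.6 CPM in WT and 100.8, 55.7 and 62.8 CPM in KO (0.42 ± 0.32), close in its pattern over the 6 libraries to Atp5k and Atp5l.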
